A study of Mus musculus with 15 samples.

Results

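The proximal 20 Mb of mouse chromosomes 12, 15, 16, 18 and 19 comprised 2500 of the 68162 genomic windows of 40 kb in the segregation table. They were defined by position, as the rows of these 5 chromosomes that start from 3000000 to below 23000000 on mm9. These chromosomes were taken as carriers of ribosomal RNA gene arrays next to the centromere. The table records, for 15 genome architecture mapping (GAM) libraries of 1 nuclear profile each, whether a window was called present (1) or absent (0). The libraries were made from 46C mouse embryonic stem cells, a Sox1-GFP knock-in line of the 129/Ola strain derived from E14tg2a, grown with LIF and serum and moved to serum-free medium before harvest. All of them are listed by the study as having failed its quality control. They form 1 group, with no untreated or wild-type comparison, and 7 library names start with f13 and 8 with f14, a prefix whose meaning is not given. The libraries may share a culture, so the spread between them need not be biological. Positive calls on the 19 autosomes ranged from 13 in f13d5 and 16 in f14e1 to 2685 in f13e1, with a median of 691, and the reads behind each call are unknown.

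A nuclear profile is a thin slice through 1 nucleus, and loci that lie close together in the nucleus tend to be caught in the same slice. Mouse chromosomes are telocentric, so the assembled sequence begins next to the centromere. On a subset of chromosomes, arrays of ribosomal RNA genes lie between the centromere and the assembled sequence, and these nucleolar organisers gather in nucleoli, where ribosomal RNA is transcribed. Several such chromosomes can attach to 1 nucleolus, which brings their centromere ends near each other. Which organisers are active differs between mouse strains and was not measured in these cells. The arrays themselves are not in the windows analysed, which begin beyond the unassembled centromeric end.

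The assembled sequence nearest to the ribosomal arrays is shown for 4 of these chromosomes, because every position below is counted from this edge. The first 200 bases follow on the plus strand of mm9, in lower case with each CG dinucleotide in capitals. They lie in no annotated gene, hold 1 or 2 CG each and have a GC content of 37.0% to 43%.
chr12:3000001-3000200: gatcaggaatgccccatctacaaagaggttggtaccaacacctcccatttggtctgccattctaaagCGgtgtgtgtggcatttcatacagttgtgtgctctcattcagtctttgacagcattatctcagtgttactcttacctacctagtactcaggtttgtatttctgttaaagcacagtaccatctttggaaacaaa
chr15:3000001-3000200: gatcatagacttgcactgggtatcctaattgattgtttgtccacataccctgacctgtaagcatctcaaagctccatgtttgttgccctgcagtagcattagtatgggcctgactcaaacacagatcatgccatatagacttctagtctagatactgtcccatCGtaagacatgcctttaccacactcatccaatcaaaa
chr16:3000001-3000200: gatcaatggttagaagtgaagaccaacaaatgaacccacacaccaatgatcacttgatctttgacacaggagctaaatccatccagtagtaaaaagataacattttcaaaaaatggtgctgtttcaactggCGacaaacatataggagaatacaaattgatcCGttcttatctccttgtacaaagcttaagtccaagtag
chr19:3000001-3000200: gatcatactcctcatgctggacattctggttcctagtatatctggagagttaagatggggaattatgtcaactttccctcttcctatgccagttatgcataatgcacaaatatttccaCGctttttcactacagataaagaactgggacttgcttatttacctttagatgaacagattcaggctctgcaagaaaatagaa

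The windows on chromosome 19 that were positive in 3 libraries, the highest number reached in the 5 spans, are represented by the middle 200 bases of 3 of them. The letters CG, which read the same on both strands, occur in the middle 200 bases of 69.9% of 59851 autosomal windows and 68.9% of 495 chromosome 19 proximal windows. The last stretch below lies in an exon of Men1, which encodes the tumour suppressor menin. It has a GC content of 59.5% and holds 8 CG.
chr19:4419901-4420100: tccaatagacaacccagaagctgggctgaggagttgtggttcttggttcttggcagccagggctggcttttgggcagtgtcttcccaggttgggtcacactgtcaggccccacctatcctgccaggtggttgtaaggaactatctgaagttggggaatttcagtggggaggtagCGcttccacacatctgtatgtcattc
chr19:4699901-4700100: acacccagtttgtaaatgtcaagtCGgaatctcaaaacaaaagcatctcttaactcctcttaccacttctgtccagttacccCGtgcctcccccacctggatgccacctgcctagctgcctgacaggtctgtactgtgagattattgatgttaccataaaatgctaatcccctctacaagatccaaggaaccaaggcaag
chr19:6339901-6340100: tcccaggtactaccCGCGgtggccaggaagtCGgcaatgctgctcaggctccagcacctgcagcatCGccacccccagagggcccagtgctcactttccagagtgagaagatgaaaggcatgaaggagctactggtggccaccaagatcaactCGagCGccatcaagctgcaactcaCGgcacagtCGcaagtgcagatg

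Within the 5 spans 581 calls were made over the 15 libraries, 3.96% of the 14688 autosomal calls, and these windows make up 4.14% of the 60391 autosomal windows from 3 Mb on. In all, 531 of the 2500 windows (21.2%) carried a call in 1 or more libraries, beside 21.8% of autosomal windows from 3 Mb on. Positive in at least 2 libraries were 45 (1.80%), beside a background of 2.31%, and 5 windows (0.200%) were positive in 3 libraries, beside 0.142%. Thus detection of these windows lay close to the background at each of these numbers of libraries. The same span of the other 14 autosomes had calls in 26.7% of its 7000 windows, and the remaining 9007 windows of the 5 chromosomes 18.8%.

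The 5 spans differed in sequence context. Chromosome 19 was gene-rich, with 19.3 protein-coding gene starts per Mb, and chromosome 15 gene-poor, with 3.35 per Mb and a mean GC content of 39.0%. Chromosomes 12 and 18 had 4.65 and 4.30 starts per Mb, and chromosome 16 had 11.9 with the highest GC content, 43.8%. Together the spans held 8.70 starts per Mb and had a mean GC content of 41.8%, against 7.37 per Mb and 40.7% in the same span of the other autosomes. Only 31 of the 2500 windows contained unknown bases.

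**Figure D1:**
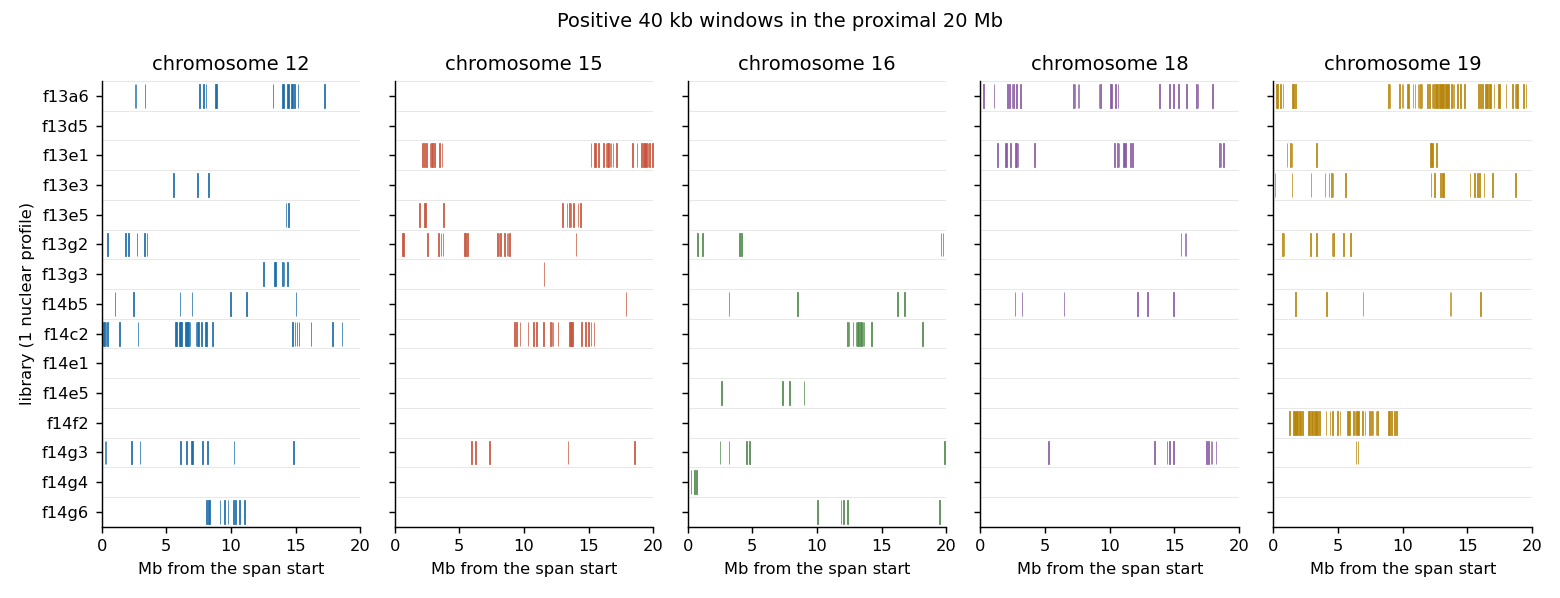
Positive 40 kb windows in the proximal 20 Mb of the 5 chromosomes, with 1 row per library and the distance in Mb from the span start (3 Mb on mm9) on the horizontal axis of each panel. Each mark is a run of adjacent positive windows, the 2 densest rows are f13a6 and f14f2 on chromosome 19, and f13d5 and f14e1 have no mark.

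Calls were spread unevenly over libraries and chromosomes. Of the 75 combinations of a library and a chromosome, 35 had at least 1 positive window, and 17 combinations with 10 or more calls held 85.7% of all calls in the spans. The distance from the first to the last call had a median of 13.5 Mb in these 17 combinations and of 4.76 Mb in the 18 combinations with 1 to 9 calls. In the 13 libraries with a call, the leading chromosome held between 25.9% and 100% of the calls, with a median of 72.2%. In f14f2 all 76 calls were on chromosome 19, and in f14b5 the 27 calls were spread over all 5 chromosomes with at most 7 on each.

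Chromosome 19 contributed 222 calls, 38.2% of the total. It was detected in 7 libraries, with 95 positive windows of 500 in f13a6, 76 in f14f2, 20 in f13e3, 11 in f13e1, 11 in f13g2, 7 in f14b5 and 2 in f14g3. The first 2 of these held 171 of its calls and stood clear of the others. In f13a6 the calls reached from 0.200 to 19.6 Mb beyond the span start, and in f14f2 from 1.20 to 9.52 Mb, and the pair shared 6 windows. These were 7.89% of the f14f2 calls and 3.97% of the f13a6 calls in the 5 spans. The longest run of adjacent positive windows in the 5 spans was on this chromosome in f14f2, with 11 windows from 4480001 to 4920000.

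Chromosome 12 was detected in the most libraries, 9, with 39 positive windows in f14c2, 23 in f13a6, 13 each in f14g3 and f14g6, 7 each in f13g2, f13g3 and f14b5, and 3 each in f13e3 and f13e5. Its calls were short, with 72 of 92 runs a single window and none longer than the 4 windows of f13a6 from 16960001 to 17120000. In f14g6 the 13 calls lay within 3.0 Mb, whereas the 39 calls of f14c2 extended over 18.6 Mb. Chromosome 15 was detected in 7 libraries, led by f13e1 with 48 windows, f14c2 with 24 and f13g2 with 21, followed by 13 in f13e5, 5 in f14g3 and 1 each in f13g3 and f14b5. Its longest run was 7 windows in f13e1, from 22200001 to 22480000 near the far end of the span. The f13e1 calls all lay between 5080001 and 6680000 or between 18160001 and 23000000, with none in the middle of the span.

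Chromosome 16 had the fewest calls, 49, although it was detected in 7 libraries. It had 18 positive windows in f14c2, 7 in f13g2, 6 in f14b5, 5 each in f14g3 and f14g6, and 4 each in f14e5 and f14g4. Of its 500 windows 9.40% were positive in any library, the lowest share of the 5. In f14c2 a run of 5 windows covered 16320001 to 16520000. Chromosome 18 was detected in 5 libraries, with 33 windows in f13a6, 29 in f13e1, 11 in f14g3, 6 in f14b5 and 3 in f13g2. Its longest run was 6 windows in f13e1, from 14040001 to 14280000.

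**Figure D2:**
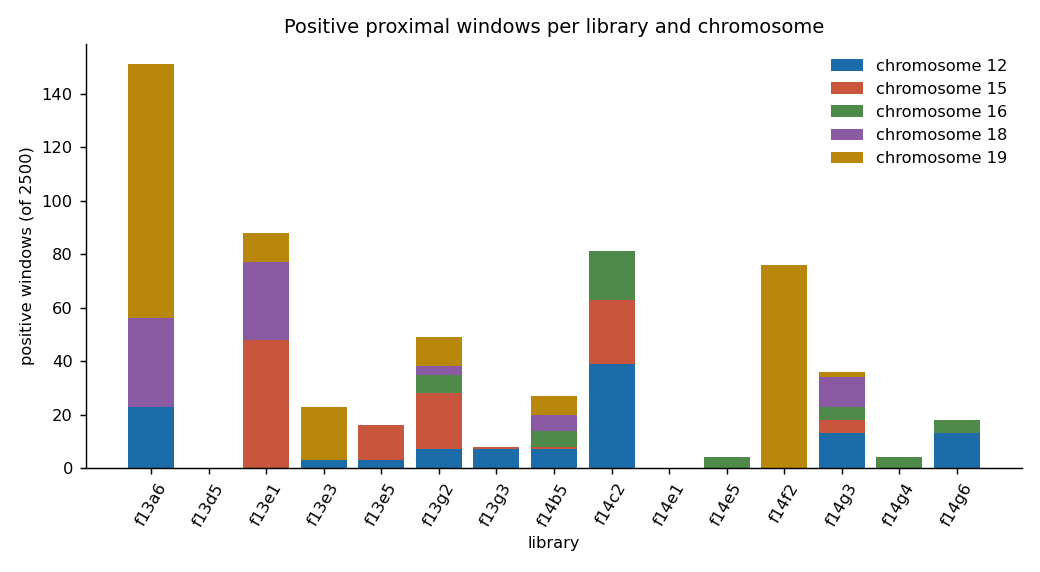
Number of positive windows (of 2500) in each library, stacked by chromosome. Library f13a6 had 151 positive windows, f13e1 88, f14c2 81 and f14f2 76, and the make-up by chromosome differs between them.

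Where a slice caught the proximal end of a chromosome it mostly caught the adjoining sequence too. Of the 40 combinations with no positive proximal window, 30 had none in the next 20 Mb (23 to 43 Mb) either. Of the 17 combinations with 10 or more proximal calls, 2 had none there, f13e3 on chromosome 19 and f14c2 on chromosome 16. Median coverage of the next 20 Mb, the percentage of its windows called positive, was 0.00% over the former combinations and 1.00% over the latter, with the highest at 10.2% on chromosome 15 in f14c2. The combinations with no call in either stretch include all 5 chromosomes of f13d5 and of f14e1. These libraries had only 13 and 16 autosomal calls, so the contrast also reflects how many calls a library had. The combinations share libraries and were therefore not tested.

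Coverage of the proximal windows was compared with that of the rest of the same chromosomes, to ask whether the centromere end was caught more or less often than the arms. Proximal coverage was 1.55% ± 1.72 (SD, n = 15). It extended from 0.00% in f13d5 and f14e1 to 6.04% in f13a6, and its median was 0.920%. Coverage of the rest was 1.35% ± 1.35 (SD, n = 15), from 0.00% to 4.37%. The ranges overlapped almost wholly. The mean difference of 0.201 percentage points ± 1.34 (SD, n = 15) did not exceed the spread between libraries, with 9 libraries higher and 5 lower in proximal windows (two-sided exact permutation of signs, p = 0.58, Benjamini-Hochberg adjusted p = 0.69 over 3 coverage comparisons). This test compares the mean with those under every way of turning the signs of the libraries' differences. It was -0.0873 in the f13 libraries (n = 7, exact p = 0.94) and 0.453 in the f14 libraries (n = 8, exact p = 0.25). Without chromosome 19 it was -0.105 (n = 15, exact p = 0.77), so the sign rested on that chromosome. In the 13 libraries with at least 100 autosomal calls, which leaves out f13d5 and f14e1, it was 0.234 (exact p = 0.58). With 1 library left out it ranged from 0.0709 without f14c2 to 0.452 without f13g3.

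The same span of the other 14 autosomes had a coverage of 2.01% ± 2.39 (SD, n = 15), from 0.00% to 6.96%. Proximal coverage on the 5 chromosomes minus this value was -0.464 percentage points ± 2.31 (SD, n = 15), and -0.535 over the 13 libraries, with 5 libraries higher and 8 lower (two-sided exact permutation of signs, p = 0.47, adjusted p = 0.69). The libraries diverged in both directions. In f14f2 proximal coverage was 3.04% on the 5 chromosomes and 0.329% on the others, and in f13a6 it was 6.04% and 2.79%, whereas in f14g4 it was 0.160% and 5.51%. When coverage was divided by the autosomal coverage of the library, the mean difference was 0.201 and opposite in sign (n = 15, exact p = 0.60). This value is a multiple of autosomal coverage and not in percentage points. Before the division the difference was -0.451 percentage points in the f13 libraries and -0.475 in the f14 libraries. With 1 library left out it ranged from -0.730 without f13a6 to -0.115 without f14g4. The difference between proximal and remaining windows on the 5 chromosomes, minus that on the other autosomes, was -0.194 percentage points ± 1.81 (SD, n = 15, exact p = 0.69), and it was -0.251 and -0.144 in the f13 and f14 libraries.

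**Figure D3:**
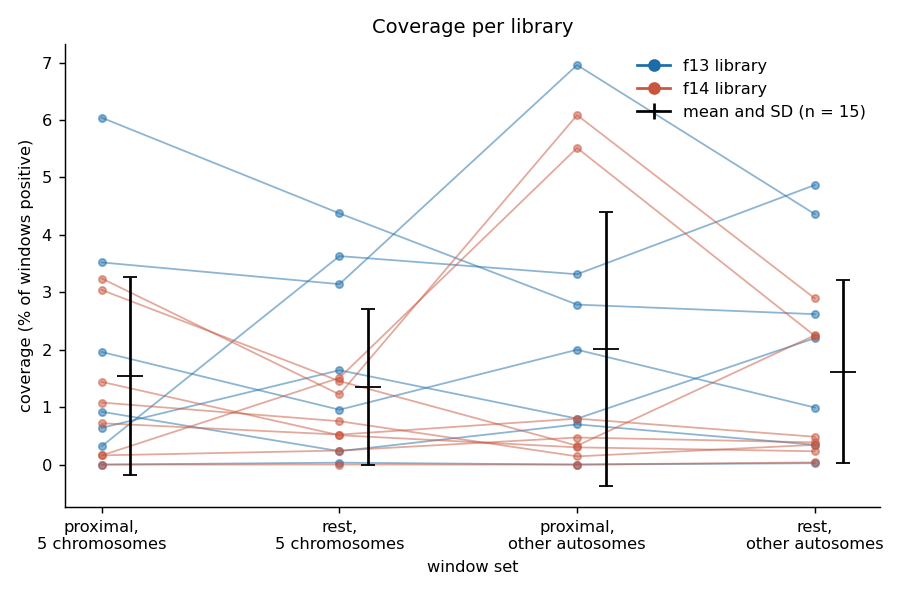
Coverage, in % of windows positive, of the 4 sets of windows in each library, with lines joining the values of 1 library and bars for the mean and SD over 15 libraries. Means are 1.55%, 1.35%, 2.01% and 1.62% from left to right, and the lines cross in both directions.

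Each of the 19 autosomes was tested in the same way, and 0 were called as higher (0.0%) and 0 as lower (0.0%) in proximal windows than in the rest at an adjusted p under 0.05 by the exact sign-flip test. At an unadjusted p under 0.05 there were also 0. Among the 5 chromosomes, chromosome 19 had the largest difference, with a proximal coverage of 2.96% ± 5.91 against 1.74% ± 3.46 (SD, n = 15, exact p = 0.31, adjusted p = 0.85). Chromosome 15 had 1.51% ± 2.76 against 0.931% ± 1.40, higher in 7 libraries and lower in 2 (n = 15, exact p = 0.36, adjusted p = 0.85). Proximal coverage was below that of the rest on average on chromosomes 12, 16 and 18, by -0.146, -0.395 and -0.382 percentage points, with an adjusted p of 0.85 or above by the exact test (n = 15).

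Along the 20 Mb, coverage of the 5 chromosomes in bins of 2 Mb ranged from 1.04% at 18 to 20 Mb beyond the span start to 2.37% at 12 to 14 Mb. In the first 2 Mb it was 1.68% ± 2.00 (SD, n = 15) with calls in 10 libraries, against 2.35% ± 3.31 on the other autosomes with calls in 12. The first window of the span was called on chromosome 12 only, in f14c2. The first call lay 0.12 Mb from the edge on chromosome 19, 0.200 Mb on chromosome 18, 0.240 Mb on chromosome 16 and 0.560 Mb on chromosome 15. Calls within 1 Mb of the edge came from 3 libraries on chromosomes 12 and 19, 2 on chromosome 16 and 1 each on chromosomes 15 and 18.

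**Figure D4:**
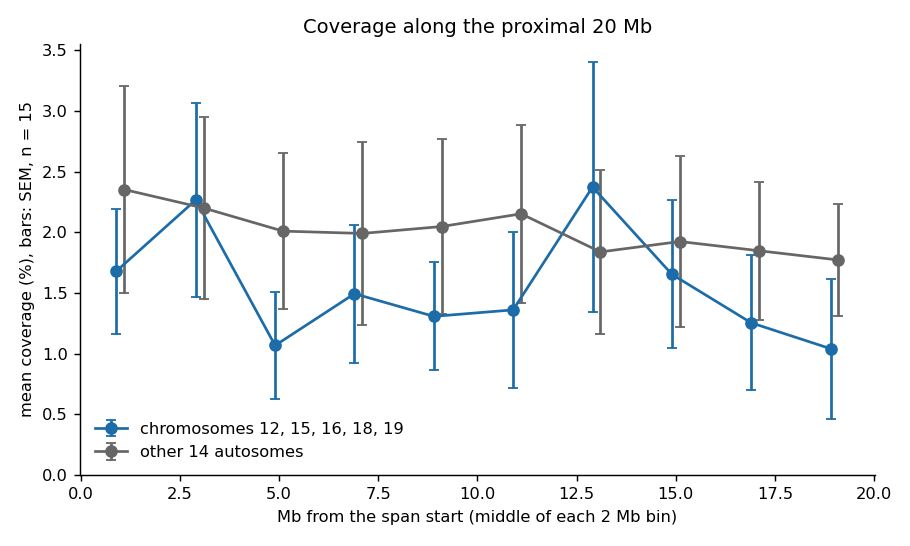
Mean coverage in % with its standard error over 15 libraries, in bins of 2 Mb from the span start, for the 5 chromosomes and the other 14 autosomes. Coverage of the 5 chromosomes lies between 1.04% and 2.37% with overlapping error bars.

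Clustering of the calls was then examined, since windows next to each other on a chromosome tend to be caught in the same slice. In the spans the 581 calls formed 397 runs of adjacent positive windows, 72.0% of them a single window, and 10 runs had at least 5 windows. Mean run length was 1.78 windows on chromosome 19 and from 1.25 to 1.38 on the other 4 chromosomes. Over the 10 libraries that had 10 or more calls in each set, the proportion of calls with a positive neighbour was 0.395 ± 0.263 (SD, n = 10), with the lowest value 0.00 in f13e3, a median of 0.371 and the highest 0.855 in f14f2. It was 0.335 ± 0.250 in the rest of the same chromosomes and 0.333 ± 0.167 in the same span of the other autosomes.

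The proportion was higher in proximal windows than in the rest of the same chromosomes in 8 of these 10 libraries, by 0.0597 ± 0.110 (SD, n = 10). The difference did not pass the threshold (two-sided exact permutation of signs, p = 0.12, adjusted p = 0.48 over 4 clustering comparisons). Without f13e3, whose 23 proximal calls had no neighbour, it was 0.0875 with 8 of 9 libraries higher (exact p = 0.012, adjusted p = 0.047). It was 0.0135 in the f13 libraries (n = 5, exact p = 0.875) and 0.106 in the f14 libraries, with 5 of 5 higher (n = 5, exact p = 0.0625, the smallest that 5 libraries allow). The proportion also depends on how densely calls lie, and it was not scaled by coverage. Coverage too was higher in proximal windows in each of these 5 f14 libraries, as in f14g3 with 1.44% against 0.511%. In f13e5 both coverage and the proportion were lower in proximal windows. In f13e3 coverage was higher, 0.920% against 0.233%, and the proportion lower. Against the other autosomes the difference in proportion was 0.0622 ± 0.225 (SD, n = 10), with 5 libraries higher and 5 lower (exact p = 0.47). It ranged from 0.00311 without f14f2 to 0.0964 without f13e3. In f14f2 the proportion was 0.855 on the proximal 5 chromosomes and 0.261 on the proximal windows of the others.

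At larger distances, the percentage of windows 0.4 to 1 Mb away from a positive window that were positive themselves was 11.4% ± 9.05 (SD, n = 10) in the spans. It was lowest in f14b5 at 1.39% and highest in f14f2 at 27.3%, with 23.8% in f13a6 and 17.8% in f13e1. These values lay above the coverage of the 5 spans together in the same libraries, 1.08%, 3.04%, 6.04% and 3.52%. This coverage includes chromosomes without a call, so it is a low baseline where calls lie on few chromosomes. On the leading chromosome alone, coverage was 15.2% in f14f2 (chromosome 19) and 9.6% in f13e1 (chromosome 15). In f14b5 it was 1.4% on each of chromosomes 12 and 19, level with the 1.39%, and lower on the rest of the 5. The gap to coverage was not tested. The percentage at 0.4 to 1 Mb was 10.6% ± 10.3 in the rest of the same chromosomes and 10.7% ± 9.19 on the other autosomes. The differences of 0.832 and 0.785 percentage points did not pass the threshold (n = 10, exact permutation of signs, p = 0.62 and p = 0.72), and both changed sign without f13a6, to -0.292 and -0.171.

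Joint detection asks how often the proximal ends of several of the 5 chromosomes were in 1 slice. A chromosome was counted as detected when at least 1 of its 500 proximal windows was positive. All 5 were detected in 3 libraries (f13g2, f14b5 and f14g3), 3 chromosomes in 3 libraries, 2 in 4, 1 in 3 and none in 2. Each of the 3 libraries with all 5 had a chromosome with few calls. These were chromosome 18 with 3 in f13g2, chromosome 15 with 1 in f14b5 and chromosome 19 with 2 in f14g3. With at least 5 positive windows required, none of the 3 libraries had all 5. The libraries with all 5 were not those with the most calls. They had 691, 249 and 200 autosomal calls, and 49, 27 and 36 calls in the spans, while f13e1 and f13g3, with 2685 and 2606 autosomal calls, had 3 and 2 of the chromosomes.

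Among the 10 pairs of the 5 chromosomes, both members were detected in 3 to 6 libraries. Chromosomes 12 and 15 were detected together in 6 libraries of the 10 with either, and chromosomes 18 and 19 in 5 of 7, a ratio of 0.714 and the highest of the 10. The lowest was 0.273, for chromosomes 16 and 19 (3 libraries of 11). The median ratio was 0.427 for these 10 pairs, 0.375 for the 91 pairs of the other autosomes and 0.375 for the 70 pairs with 1 member from each set. Pairs share chromosomes and libraries, and the ratios are given as a description without a test. The ratios of the 91 pairs extended from 0.00 to 0.90, and so spanned those of the 10 pairs.

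Per library, the share of pairs of the 5 chromosomes detected together was 28.7% ± 38.5 (SD, n = 15). It extended from 0.00% to 100%, and its median was 10.0%. For the other 14 autosomes it was 26.2% ± 21.1 (SD, n = 15), from 0.00% to 60.4%. The difference of 2.51 percentage points ± 36.1 was within the spread between libraries, with 3 libraries higher, those with all 5 chromosomes, and 10 lower (n = 15, two-sided exact permutation of signs, p = 0.80, adjusted p = 0.80 over 2 comparisons). Leaving out any 1 of these 3 libraries turned its sign, to -0.133 without f13g2, -3.27 without f14b5 and -2.80 without f14g3. It was -6.14 in the f13 libraries (n = 7, exact p = 0.53) and 10.1 in the f14 libraries (n = 8, exact p = 0.53). When a chromosome needed at least 5 positive windows, the difference was 4.38, with 5 libraries higher and 7 lower (n = 15, exact p = 0.54).

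In the next 20 Mb of the same chromosomes, 42.0% ± 42.6 (SD, n = 15) of pairs were detected together, and all 5 chromosomes were detected in 4 libraries. The proximal share was lower by 13.3 percentage points on average, a difference of -13.3 ± 24.4 (SD, n = 15), with 1 library higher, 5 lower and 9 equal (exact p = 0.094, adjusted p = 0.19). In the f13 libraries it was -27.1 (n = 7, exact p = 0.125) and in the f14 libraries -1.25 (n = 8, exact p = 1.0). With at least 5 positive windows required to detect a chromosome, the difference was 6.67 (n = 15, exact p = 0.375).

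**Figure D5:**
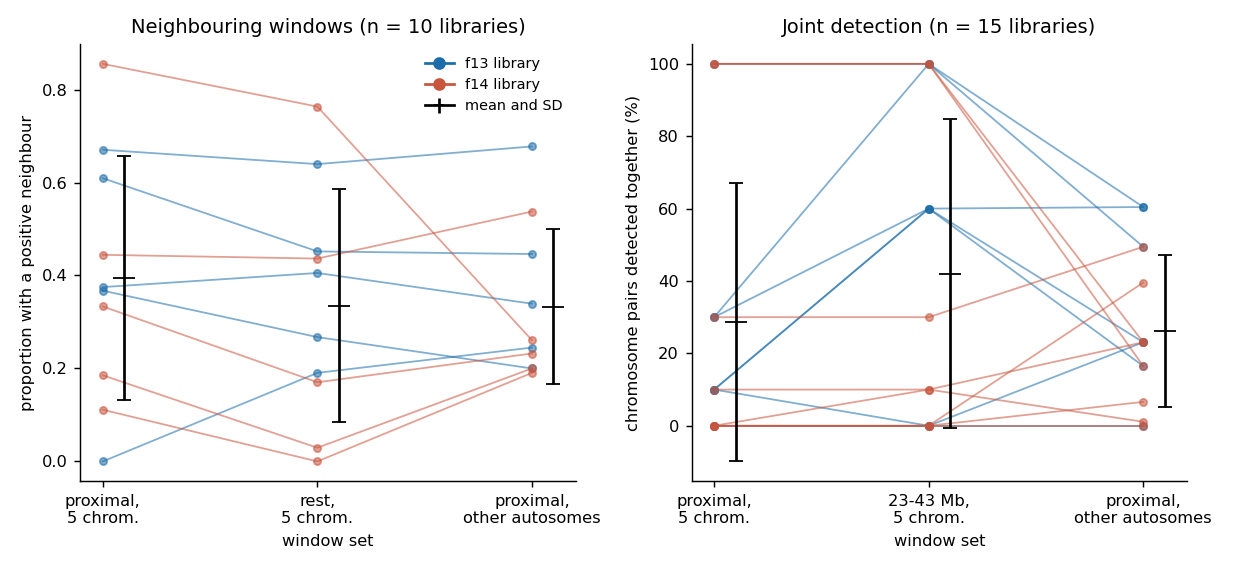
Left, calls with an adjacent call as a proportion of all calls in 10 libraries; right, the percentage of chromosome pairs detected together in 15 libraries; lines join the values of 1 library and bars give the mean and SD. On the left the means are 0.395, 0.335 and 0.333, and on the right 28.7%, 42.0% and 26.2%.

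Libraries differed in how much of their signal lay on the 5 chromosomes. The spans held 18% of autosomal calls in f14g3, 10.8% in f14b5, 9.70% in f13e3 and 8.22% in f13a6, above the 4.14% that these windows make up, as in 8 of 15 libraries. In f14g3 and f14b5, whole chromosomes were also favoured, as 41.0% and 38.2% of autosomal calls were on the 5 chromosomes, which hold 19.1% of the windows. In f13g3 and f14g4 the spans held 0.307% and 0.273% of the calls. Of 78 pairs of libraries with calls in the spans, 51 shared no window and the most, 6, were shared by f13a6 and f14f2. Windows positive in at least 2 libraries made up 1.80% of the spans, beside 2.31% of autosomal windows from 3 Mb on. The counts per pair were not set against the number that unrelated calls would share, so they cannot be called few or many. The libraries f14b5 and f14g3 shared 3 windows, on chromosomes 12, 16 and 18.

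The windows positive in the most libraries lay mainly on chromosome 19, where 4 windows were positive in 3 libraries each. This chromosome also held 38.2% of all calls in the spans, and only 33.8% of its proximal windows overlap no protein-coding gene. The window from 4400001 to 4440000 was positive in f13a6, f13e1 and f13e3 and holds exons of Rhod, which encodes a small GTPase. The window from 4680001 to 4720000, positive in f13a6, f14b5 and f14f2, holds exons of Spnb3, a spectrin of the membrane skeleton, and of Gm960. The window from 6320001 to 6360000, positive in f13e1, f13g2 and f14f2, holds exons of Men1, Map4k2 and Cdc42bpg, the last 2 encoding kinases, and had a GC content of 52.1% and 18.8 CG per kb. The window from 7600001 to 7640000, positive in f13e3, f13g2 and f14f2, holds exons of Atl3, an atlastin of the endoplasmic reticulum, and of Pla2g16, a phospholipase. On chromosome 18 the window from 17920001 to 17960000 was positive in f13a6, f14b5 and f14g3 and had a GC content of 36.4%. It holds no annotated protein-coding gene, as is so for 53.6% of the proximal windows of chromosome 18.

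No window was positive in more than 2 libraries on chromosomes 12, 15 and 16. Of the proximal windows of chromosome 12, 69.8% overlap no protein-coding gene. The chromosome had 14 windows positive in 2 libraries, of which 10 overlap such a gene, a contrast that was not tested. Chromosome 15 had 3, starting at 5280001, 16480001 and 18160001, and chromosome 16 had 2, starting at 6200001 and 15360001, and none of these 5 windows overlaps an annotated protein-coding gene, as is so for 63.2% of the proximal windows of chromosome 15 and 37.4% of those of chromosome 16. The base composition of called windows was compared with that of all windows. In the 10 libraries with at least 10 calls, the GC content of positive windows minus that of all windows of the same chromosome and span was -0.155 percentage points ± 1.34 (SD, n = 10), lower in 8 and higher in f13g2 and f14f2, and did not pass the threshold (two-sided exact permutation of signs, p = 0.76). Without f14f2 it was -0.523 (n = 9, exact p = 0.059) and without f14c2 -0.0150 (n = 9, exact p = 0.98).

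Of the 868 protein-coding genes within the spans, 303 (34.9%) overlapped a window positive in at least 1 library. This share was 32.0% for autosomal protein-coding genes from 3 Mb on and 35.0% for those in the same span of the other autosomes. The shares were 49.4% on chromosome 19, 38.4% on chromosome 18, 37.9% on chromosome 15, 35.5% on chromosome 12 and 9.24% on chromosome 16. Genes in 1 window share its call, so neighbours are not independent.

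Genes of a list drawn up for these spans showed the same sparse detection. A gene without a call may still have been in a slice. The listed genes also differ in size, from 1 window for Odc1 to 8 for Ghr. On chromosome 12, Rock2, encoding a kinase of the actin cytoskeleton, was in slices f13a6 and f13g3 and Mycn, a MYC family transcription factor, in f14b5. The DNA methyltransferase gene Dnmt3a, the hormone precursor gene Pomc, Apob, which encodes a lipoprotein component, and Odc1, an enzyme of polyamine synthesis, had no call. On chromosome 15, 1 of 5 cytokine receptor genes was detected: Osmr, the oncostatin M receptor, in f13e5. The genes of the growth hormone, interleukin-7 and prolactin receptors (Ghr, Il7r and Prlr) and Lifr, the receptor for the LIF in which these cells were grown, were not called in any of the 15 libraries. The cohesin loader gene Nipbl and the natriuretic peptide receptor gene Npr3 were detected in f13g2, and the growth factor gene Gdnf in none.

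On chromosome 16, 1 of 10 listed genes was detected, Crebbp, which encodes a histone acetyltransferase, in f13g2. The sperm chromatin genes Prm1, Prm2 and Tnp2 share 1 window with Socs1, a cytokine signalling inhibitor, and had no call. Ciita, Snai2, Tbx1 and Dgcr8, whose product takes part in microRNA processing, had none. On chromosome 18, Zeb1, a transcription factor of the epithelial to mesenchymal transition, was in 3 slices, f13a6, f13e1 and f14b5. Rock1 and the cadherin gene Cdh2 were in f13a6 and Ttr, encoding transthyretin, in f14g3. The transcription factor gene Gata6 and the DNA repair gene Rbbp8 had no call. The desmosomal cadherins lie in 1 cluster, and 4 of 9 (Dsg1a, Dsg1c, Dsg3 and Dsg4) were detected, all in f14g3.

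On chromosome 19, Men1 was in 3 slices. The nuclear long noncoding RNA genes Malat1 and Neat1 lie side by side and were each detected in 1 library, Malat1 in f14f2 and Neat1 in f13g2. Rela, a subunit of NF-kappaB, Ahnak, the ferritin gene Fth1, the flap endonuclease gene Fen1, the B cell gene Ms4a1 and Aldh1a1, an enzyme of retinoic acid synthesis, were not called. Of 65 olfactory receptor genes of this span, 28 were detected, in f13a6 or f14f2, and 1, Olfr1417, in both.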

How the data were processed

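The 15 libraries are single nuclear profiles cut from 46C mouse embryonic stem cells and amplified by WGA4 before sequencing. The submitters' processing notes name Bowtie2 2.1 and mm9, and the authors deposited for each 40 kb window a call of 1 (positive) or 0. The read threshold behind the calls was not checked here. Neither read counts nor depth are in the table, so no counting error can be given. The number of libraries and the number of calls in each, from 13 to 2685 on the autosomes, both limit the precision. Calls were used as deposited. All windows of the segregation table from 3 Mb on were counted in Python 3.11.15 with numpy 2.4.6 and pandas 2.3.3. Libraries were compared within themselves by exact two-sided sign-flip permutation tests, adjusted by Benjamini-Hochberg within each family of comparisons, and p-values measure only the spread between these libraries. Base composition and gene overlap were read from the mm9 genome and its annotation. Members, gene lists and tests were chosen with earlier results of these data known. Named windows are those positive in the most libraries on each chromosome, listed singly where few are tied, and named genes come from a list of known genes of the spans. Alternatives covered span length, detection thresholds, scaling by coverage, name prefix, and leaving out each chromosome or library. A listed gene and a sequence are not reported here.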

Additional observations from a re-analysis of the deposited data

How the results depend on the processing

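No comparison passed the threshold in the main setting, and none did under an alternative, with 1 exception. This was the difference in neighbour proportion between proximal windows and the rest of the same chromosomes. Without f13e3 it had an adjusted p of 0.047 by the exact sign-flip test. Over single libraries left out it ranged from 0.0483 to 0.0875, and the proportion was not scaled by coverage. Directions turned as follows, and the causes were not tested. With the span ending at 13 Mb, the neighbour proportion against the other autosomes was -0.00136, detection at 0.4 to 1 Mb was -2.27 percentage points against the rest and -4.02 against the other autosomes, and joint detection against the other autosomes was -0.513. With the span ending at 33 Mb the last 3 were -1.14, -0.633 and -3.46. Without chromosome 19, coverage against the rest was -0.105, and detection at 0.4 to 1 Mb was -0.203 and -2.34. Without chromosome 12 joint detection was -0.598, and without chromosome 16 the GC difference was 0.0280. Within the f13 libraries, coverage against the rest was -0.0873, detection at 0.4 to 1 Mb against the other autosomes -0.393 and joint detection -6.14. Dividing by coverage gave values that are multiples of coverage and not percentage points. They were 0.201 for coverage against the other autosomes, 0.290 for the difference between differences, and -1.81 and -3.50 for detection at 0.4 to 1 Mb. Undivided, this detection was -0.0868 percentage points against the other autosomes with at least 5 windows per set. Joint detection against the other autosomes was -0.674 when adjacent windows were required and -0.0515 as a mean product of coverages. Against 23 to 43 Mb it was 6.67 with at least 5 windows and 0.0110 as a mean product. The mean products are on another scale than the share of pairs. With single libraries left out, detection at 0.4 to 1 Mb ranged from -0.292 to 1.76 against the rest, turning without f13a6, and from -0.665 to 1.96 against the other autosomes, turning without f13a6 or f14f2. Joint detection against the other autosomes ranged from -3.27 to 5.52, and the difference between differences from -0.458 to 0.123, turning without f14g4. The alternatives for GC content were chosen after seeing the data. Every comparison was made within libraries, and the libraries form 1 group, so there were no groups to pair by replicate number. Calls without read numbers, 15 libraries and 10 for clustering limit the precision.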

Other observations

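Windows shared between libraries were counted as a share of the calls of each library in the spans. The libraries f13a6 and f13e3 shared 4 windows, all on chromosome 19, which were 2.65% of the f13a6 calls and 17.4% of the f13e3 calls. The libraries f14b5 and f14g3 shared 3, which were 11.1% and 8.33% of their calls. Coverage of the spans was 1.08% in f14b5 and 1.44% in f14g3. How many windows unrelated calls would share was not computed. In the next 20 Mb of the 5 chromosomes, the ratio of libraries with both members of a pair to libraries with either had a median of 0.600 over the 10 pairs, from 0.545 to 0.80, against 0.417 (0.10 to 0.889) over the 91 pairs of the other autosomes and 0.50 (0.20 to 0.80) over the 70 mixed pairs, whose ranges take in that of the 10 pairs. These ratios share chromosomes and libraries and carry no test.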
